A study of Homo sapiens with 2 samples.

Results

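The long non-coding RNAs (lncRNAs) CCAT1, PVT1, MALAT1, TUG1, HOTAIR, CRNDE, DANCR, GAS5, H19 and MEG3, all with a large cancer literature, were followed in a pair of human ovarian cancer cell lines. These 10 genes were listed by name, and each was read from the transcript clusters that the annotation of the array gives to it alone. A transcript cluster is the set of probes that the array assigns to one locus. Of the 10 listed genes, 7 had a cluster of their own (1 cluster each) out of 22348 named genes on the array. GAS5, PVT1 and H19 had none and are reported as not measured. OAW42 is a serous ovarian carcinoma line that is sensitive to cisplatin. Its derivative OAW42-R tolerates cisplatin, having been selected by escalating rounds of drug treatment separated by drug-free growth. Both were grown without drug, in the same insulin-supplemented medium, and total RNA of each line was hybridised to 1 array. With 1 array per line the error of the values could not be estimated, and nothing could be tested between the lines. A property of the resistant line also cannot be told apart from the state of the culture that was sampled.

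LncRNAs act through their RNA rather than through a protein. Some stay at the locus where they are made and influence neighbouring genes, others recruit chromatin complexes to distant genes, bind splicing factors or microRNAs, or serve as the precursor of small RNAs cut from their introns or exons. Because many of them are read together with their neighbours or hosted small RNAs, the genes around each locus and the small RNAs inside it are given beside each one.

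The data showed lower signals of CCAT1 and TUG1 and a higher signal of DANCR in OAW42-R. MALAT1 differed less, and the remaining measured lncRNAs had close to equal signals. CCAT1 was 1.83-fold and TUG1 1.54-fold lower in OAW42-R, and DANCR was 1.46-fold higher. MALAT1 was 1.21-fold higher, CRNDE was 1.04-fold lower, and HOTAIR and MEG3 had the same signal in both lines to 2 decimals. For the small differences the sign cannot be read as a direction.

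TUG1 on chromosome 22 and DANCR on chromosome 4 are shown by the 250 bases before their transcription start, from RefSeq on the GRCh38.p14 assembly, because they carried the largest differences after CCAT1, whose sequence is not shown. Capitals mark the GC box GGGCGG, bound by SP1, and the E-box CACGTG, bound by MYC with its partner MAX, each on either strand.
TUG1, chr22:30969015-30969264, plus strand: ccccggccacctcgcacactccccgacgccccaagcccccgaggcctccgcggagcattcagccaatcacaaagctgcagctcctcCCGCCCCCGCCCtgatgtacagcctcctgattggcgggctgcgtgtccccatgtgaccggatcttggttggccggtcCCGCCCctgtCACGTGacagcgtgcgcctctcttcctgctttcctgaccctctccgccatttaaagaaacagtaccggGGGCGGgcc
DANCR, chr4:52712144-52712393, plus strand: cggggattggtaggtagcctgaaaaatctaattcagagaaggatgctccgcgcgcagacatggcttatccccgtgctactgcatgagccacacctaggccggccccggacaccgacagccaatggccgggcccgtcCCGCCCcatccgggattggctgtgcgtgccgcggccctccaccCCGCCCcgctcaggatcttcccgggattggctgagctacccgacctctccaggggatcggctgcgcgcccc
Both stretches had a GC content of 66.8%, with 20 CpG dinucleotides before TUG1 and 22 before DANCR. The GC box occurred 4 times before TUG1 and 2 times before DANCR, and 42.6% of the 35116 promoters of the table held at least 1 in the same window. The E-box occurred 1 time before TUG1 and was not among the letters before DANCR, and 6.34% of the promoters held it. Neither window held TATAAA (in 10.7% of promoters) or the cAMP response element TGACGTCA (in 1.65%), the remaining motifs searched, also on both strands. No motif overlapped another kind. A match describes the sequence and is no evidence of binding in these cells.

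The levels are RMA signals on the log2 scale, where a difference of 1 is a doubling. CCAT1, an enhancer-associated transcript made upstream of MYC on chromosome 8, gave 9.14 in OAW42-R against 10.01 in OAW42, differing by -0.87. TUG1, a widely expressed lncRNA known to bind Polycomb proteins, gave 10.49 in OAW42-R against 11.11 in OAW42, differing by -0.62. Both were lower in the resistant line. DANCR, which keeps epidermal progenitors undifferentiated and also hosts a small nucleolar RNA (snoRNA), was higher there, at 8.42 in OAW42-R against 7.87 in OAW42, differing by 0.55.

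MALAT1, an abundant nuclear speckle RNA from chromosome 11, gave 12.77 in OAW42-R against 12.50 in OAW42, differing by 0.27. CRNDE, which is made next to the homeobox gene IRX5 on chromosome 16 and was named for colorectal neoplasia, had signals of 7.90 and 7.95. HOTAIR, transcribed from the HOXC cluster on chromosome 12 and known for guiding Polycomb repressive complex PRC2, had a signal of 7.16 in both lines. MEG3, the maternally expressed imprinted RNA of chromosome 14, had a signal of 6.63 in both lines.

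**Figure D1:**
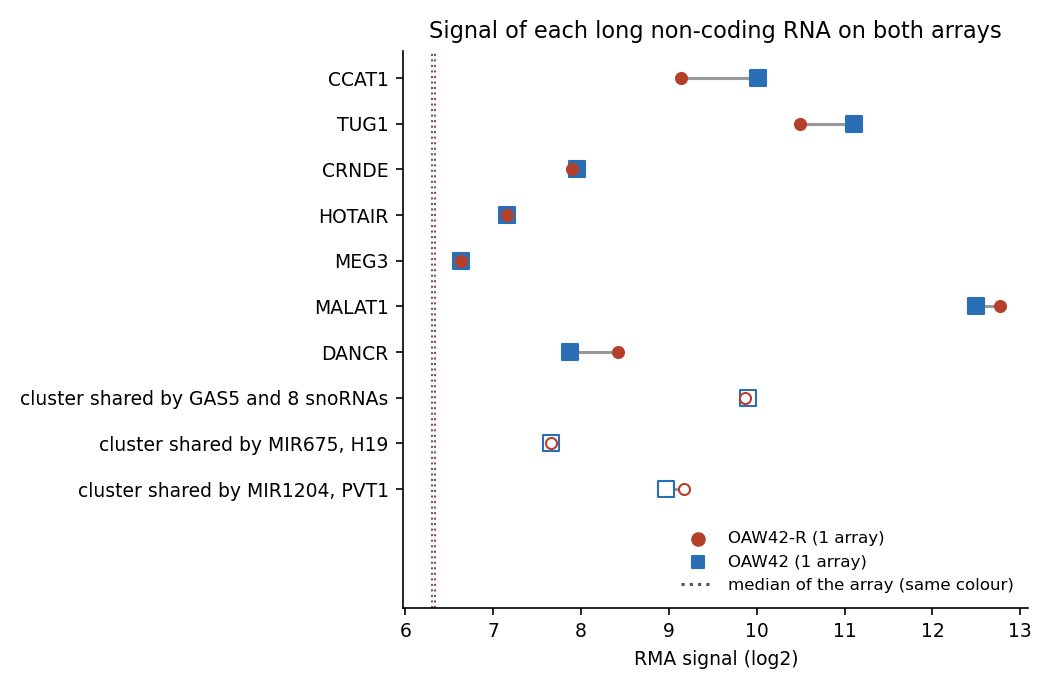
RMA signal (log2, horizontal axis) of each lncRNA in OAW42-R (circles) and OAW42 (squares), 1 array per line, with open symbols for clusters that carry several gene symbols and dotted lines at the median of each array. CCAT1 and TUG1 sit lower in OAW42-R and DANCR and MALAT1 higher, while the symbols of CRNDE, HOTAIR and MEG3 overlap.

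The median over all 67524 clusters was 6.34 on the OAW42-R array and 6.30 on the OAW42 array, and a gene was called above the floor where its brighter array reached that median. All 7 measured lncRNAs were above this floor. At the 75th percentile instead (7.78 and 7.74), 5 of 7 were above, and HOTAIR and MEG3 were not. The genes with equal signals thus lay between the median and the 75th percentile of both arrays. Equal values to 2 decimals were found for 3.68% of the 15910 genes above the floor.

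Of the 7 lncRNAs, 2 were higher, 3 lower and 2 equal, where 46.6% of the 15910 genes above the floor were higher and 49.7% lower. At least 1.5-fold differences were found for 2 of 7, against 3.34% of these genes. Both were lower in OAW42-R, a direction in which 1.31% of genes passed that size. At least 2-fold differences were found for 0 of 7, against 0.874% of genes. The members had a median difference of 0.00, as did all genes above the floor. With 7 genes and 1 array per line these counts are descriptions of the arrays. The genes were also chosen with earlier results of these data known, so the counts are no measure of an excess over these shares.

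The distance of single genes from the bulk gives the scale of these differences. The central 95% of genes above the floor ran from -0.44 to 0.53. CCAT1 and TUG1 lay below this range and DANCR just above it, while MALAT1, CRNDE, HOTAIR and MEG3 lay inside. Among genes above the floor, 79 had a lower difference than CCAT1, 182 a lower one than TUG1 and 361 a higher one than DANCR. MALAT1 was exceeded by 1379 genes.

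The same order was then read among genes of like brightness, since spread can depend on signal. Of 2445 genes with a mean signal within 0.5 of CCAT1, the central 95% of differences ran from -0.52 to 0.56. For TUG1 the range over 752 such genes was -0.46 to 0.44, and for DANCR the range over 4662 genes was -0.42 to 0.54. These 3 lncRNAs lay outside their ranges, DANCR only just. For MALAT1 the range over 89 genes was -0.40 to 0.41, and it lay inside.

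Among the 860 genes of lncRNA type above the floor, 2 had a lower difference than CCAT1, while 29 had a higher one than DANCR. These lncRNA genes had a median of 0.03 and a central 95% range from -0.30 to 0.67. Differences of at least 1.5-fold were found for 3.02% of them in the higher and 0.581% in the lower direction. CCAT1 was 1 of the 5 lncRNA genes at least 1.5-fold lower. TUG1 is listed as protein-coding in the RefSeq table and was not among these 860, but 5 of them had a lower difference than it.

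**Figure D2:**
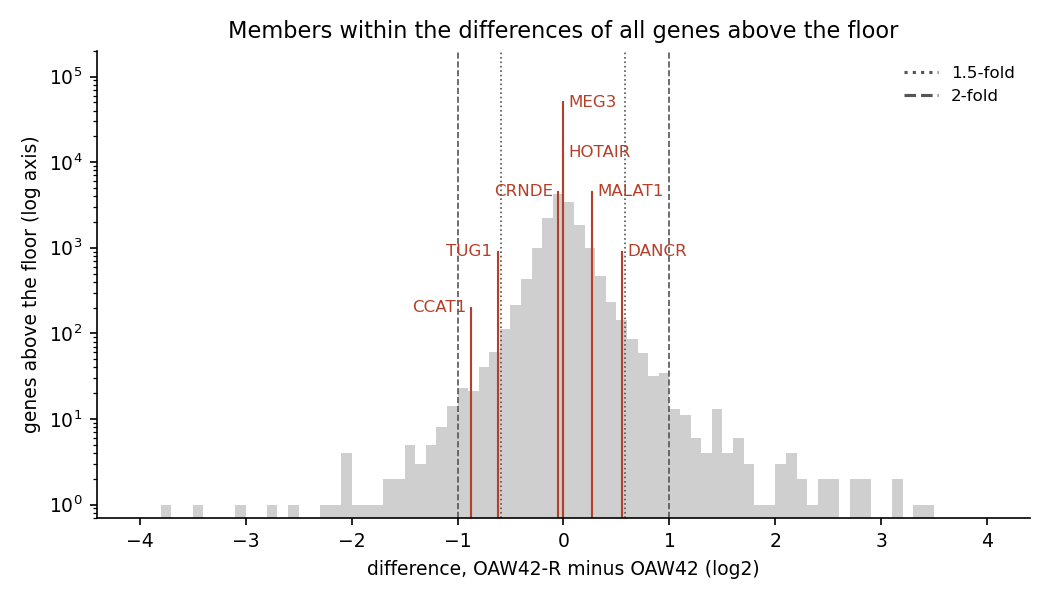
Histogram of the difference OAW42-R minus OAW42 (log2, horizontal axis) over the 15910 genes above the floor (vertical axis, number of genes, log scale), with a red line at the value of each of the 7 measured lncRNAs and grey lines at 1.5-fold and 2-fold. CCAT1 and TUG1 lie beyond 1.5-fold on the lower side, DANCR at 0.55 just inside it, and the other 4 lncRNAs lie in the bulk.

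The genes next to each locus were compared with the lncRNA itself, taking the 5 nearest named genes above the floor on each side in RefSeq order. Sides were set by start position, so small RNA genes inside a lncRNA counted among its neighbours. These were MIR1205, MIR1206 and MIR1207 for PVT1, SNORD75 and SNORD78 for GAS5, MIR4449 and SNORA26 for DANCR, and MIR770 for MEG3. CCAT1 lay below all 10 of its neighbours, which ran from -0.43 to 0.50 with a median of 0.19. Of them, 6 were higher in OAW42-R, where 46.6% of all genes above the floor were higher. PCAT1, 1 of the 6, passed the floor only through OAW42-R. MIR1205, MIR1206 and MIR1207, also among the 10, lie inside PVT1 and are not separate loci. MYC, the oncogene whose enhancer region CCAT1 lies in, had nearly the same signal in both lines (10.32 in OAW42-R and 10.35 in OAW42). The largest differences were those of MIR1206 (0.50), a microRNA gene inside PVT1, and LRATD2 (-0.43). Under the floor at the 75th percentile the neighbours had a median of 0.03.

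TUG1 also lay below all 10 of its neighbours. Of these, 8 of 10 were lower, over a range from -0.42 to 0.05 around a median of -0.09. That is near the share of chromosome 22, where 76.6% of genes above the floor were lower. The largest differences were those of MORC2, an ATPase that acts in chromatin silencing (-0.42), and of the microRNA gene MIR3200 (-0.37). MIR3200, 1 of the 8 lower genes, passed the floor only through OAW42 (6.32, against 5.95 for OAW42-R). The floor thus favoured its lower sign. Chromosome 22 leaned downward as a whole, with a median of -0.11 over its 444 other genes, of which 16 had a lower difference than TUG1. At least 1.5-fold lower were 4.94% of genes of chromosome 22, TUG1 included, against 1.31% of all genes above the floor. The median of the neighbours was -0.29 over 3 genes a side, and -0.38 under the higher floor.

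DANCR lay above all 10 of its neighbours, between -0.66 and 0.30 with a median of -0.06. The lowest was ERVMER34-1, an envelope gene of an endogenous retrovirus (-0.66), whose 6.44 on the resistant line's array was just above the median of that array. The highest was SNORA26 (0.30), the snoRNA inside DANCR. The next highest was RASL11B (0.24), a small GTPase gene, and the deubiquitinase gene USP46 differed by -0.16.

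MALAT1 lay inside the range of its neighbours, from -0.13 to 0.30 with a median of 0.04, and the largest were ZNRD2-DT (0.30) and SLC25A45 (0.21). HOTAIR lay inside a range from -0.11 to 0.40 with a median of 0.05, in which the homeobox gene HOXC13 (0.40) and CALCOCO1 (0.20) stood highest. The 10 neighbours of MEG3 ran from -0.23 to 0.03, with a median of -0.07, about that of the other genes of chromosome 14, and MIR770 (-0.23) and MIR1193 (-0.19) differed most. At these 3 loci no gene among the neighbours reached 1.5-fold.

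The locus of CRNDE held the largest neighbour difference of all. IRX3, a homeobox transcription factor of the Iroquois family, gave 9.46 in OAW42-R against 8.20 in OAW42, differing by 1.26. IRX6, another member of the family, differed by 0.44, whereas IRX5 had signals of 7.27 and 7.30, and CRNDE differed by -0.05. The median of the 10 neighbours was 0.06. The signals of IRX5 and IRX6 lay below the 75th percentile on both arrays.

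**Figure D3:**
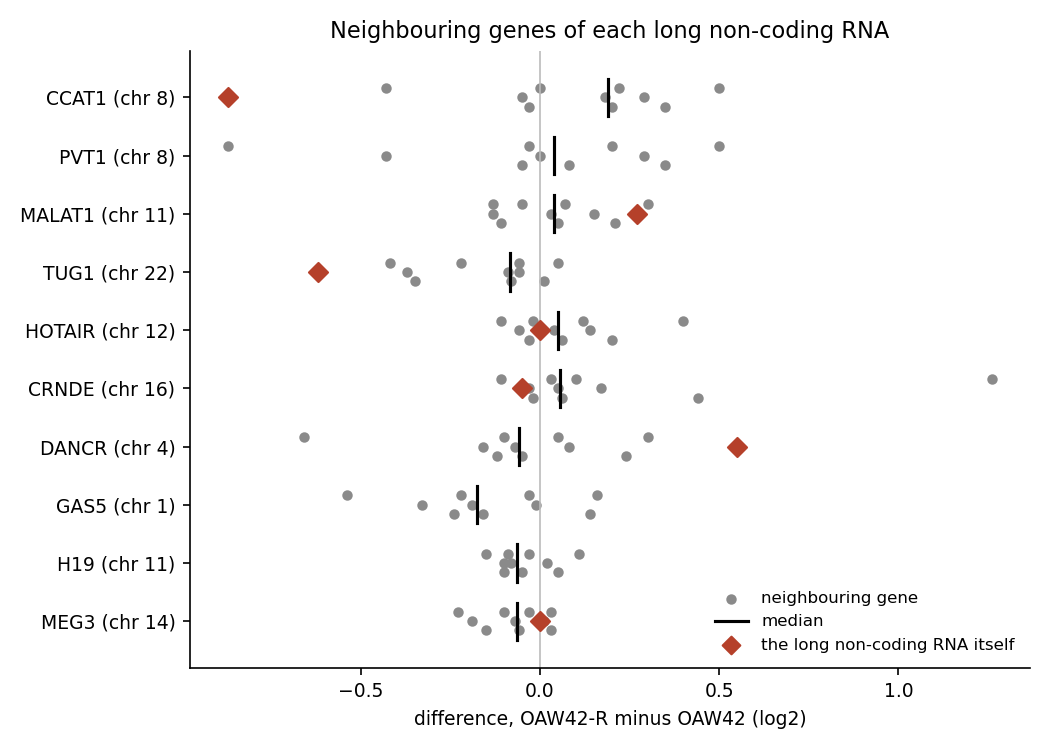
Difference OAW42-R minus OAW42 (log2, horizontal axis) of the 10 named genes above the floor nearest to each of the 10 listed lncRNAs (grey points), their median (black bar) and, where it was measured, the lncRNA itself (red diamond). Small RNA genes inside a lncRNA count among its neighbours. CCAT1 and TUG1 lie below all of their neighbours and DANCR above all of its own, and IRX3 next to CRNDE is the farthest point at 1.26.

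The listed lncRNAs without a cluster of their own were represented only by clusters with several gene symbols, so that no value is assigned to them. The cluster of PVT1, the lncRNA made downstream of MYC, also carries MIR1204 and gave 9.17 in OAW42-R against 8.97 in OAW42. The cluster of H19, the imprinted RNA that shares its locus with IGF2, also carries MIR675 and had a signal of 7.66 in both lines. The cluster of GAS5, a growth-arrest transcript that hosts many snoRNAs, carries 8 of them and had signals of 9.87 and 9.90. None of these clusters reached 1.5-fold, and that of H19 was below the 75th percentile on both arrays.

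The neighbours of these loci were measured. Around GAS5 on chromosome 1, 8 of the 10 neighbours were lower, with a median of -0.18, led by SUCO (-0.54) and RC3H1 (-0.33), an RNA-binding ubiquitin ligase. Of all genes above the floor 49.7% were lower, and those of chromosome 1 had a median of 0. The 2 higher ones were SNORD75 and SNORD78, which lie inside GAS5. With no floor the median was 0.09, so the direction depended on the floor. Around PVT1 the median was 0.04, and its largest were CCAT1 (-0.87) and MIR1206 (0.50). Around H19 it was -0.07, within a range from -0.15 to 0.11, and IGF2-AS (-0.15) and PRR33 (0.11) differed most.

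Small RNAs inside the lncRNAs were then listed by host. RefSeq places 18 of the listed small RNA genes inside a listed lncRNA, and 8 had a cluster of their own. They were also counted among the neighbours above, so their values are no separate reading. Of these 8, 5 were higher and 3 lower, around a median of 0.15, and none reached 1.5-fold. Inside PVT1, MIR1205 differed by 0.20, MIR1206 by 0.50 and MIR1207 by -0.05. Inside GAS5, SNORD75 differed by 0.16 and SNORD78 by 0.14, both snoRNAs that guide methylation of ribosomal RNA. Inside DANCR, SNORA26 had signals of 8.92 and 8.62, and MIR4449 had signals of 10.83 and 10.88.

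The mature microRNAs of the DANCR and MEG3 loci are shown with their seed (bases 2 to 8) in capitals, from RefSeq on GRCh38.p14, because these genes had a cluster of their own inside a measured lncRNA.
hsa-miR-4449, inside DANCR, chr4:52712720-52712741, plus strand: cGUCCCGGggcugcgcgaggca
hsa-miR-770-5p, inside MEG3, chr14:100852409-100852431, plus strand: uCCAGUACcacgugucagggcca
The 2 seeds have different sequences. MIR4449 differed by -0.05 while DANCR differed by 0.55, and MIR770 gave 7.54 in OAW42-R against 7.77 in OAW42 while MEG3 was equal. Whether such a cluster reads the mature microRNA, its precursor or the host transcript was not tested.

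Genes that these lncRNAs are known to work with were then described by lists, each over its genes above the floor. Over all genes above the floor the median was 0.00, with 46.6% higher and 49.7% lower. At least 1.5-fold higher were 2.02% of them, and at least 1.5-fold lower 1.31%. The lists were chosen with earlier results of these data known, so a count in a list is no measure of an excess. For CCAT1 and PVT1, 4 of 6 genes of the region around MYC were higher, 1 was lower and 1 equal, with a median of 0.13, led by CYRIB (0.35), PCAT1 (0.29, with a signal of 6.05 in OAW42, below that array's median) and NSMCE2 (0.18). ASAP1 differed by 0.08. Of 16 MYC partners and targets, 7 were higher and 8 lower, with a median of -0.03. ODC1, the rate-limiting enzyme of polyamine synthesis, differed by 0.55, the nucleolar proteins NOP58 and BOP1 by -0.16 and -0.15, and LDHA, lactate dehydrogenase, by 0.15. MAX had a signal of 8.15 in both lines.

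For HOTAIR and TUG1, 8 of 13 genes of the PRC2 and LSD1 complexes were lower and 5 higher, with a median of -0.10. JARID2, a PRC2 cofactor, gave 7.88 in OAW42-R against 8.56 in OAW42 (-0.68). It was the only gene of the 13 past 1.5-fold, against 1.31% of all genes above the floor that were as much lower. The histone chaperones RBBP4 and RBBP7 differed by 0.34 and -0.24, and the LSD1 partner RCOR1 by -0.21. Of 10 genes of the HOXC neighbourhood and of HOXD, where HOTAIR acts in trans, 7 were higher and 3 lower. Their median was 0.06, and 0.21 under the higher floor. HOXC13 differed by 0.40, HOXD8 by 0.21, HOXC8 by 0.10 and HOXD12 by 0.08.

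For MALAT1, 10 of 14 nuclear speckle and paraspeckle protein genes were lower and 4 higher, all by less than 0.20, with a median of -0.04. The splicing factor SRSF3 differed by -0.19, the speckle matrix protein SRRM1 by 0.18, and the paraspeckle proteins SFPQ and PSPC1 by 0.13 and -0.13. For H19 and MEG3, 8 of 15 imprinted genes were higher and 7 lower, with a median of 0.02. MEST differed by 0.54, PEG10 by -0.44, KCNQ1OT1 by 0.38 (with a signal of 6.13 in OAW42, below that array's median) and ZDBF2 by 0.32. DLK1, the paternally expressed neighbour of MEG3, had signals of 7.33 and 7.43.

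H19 is also known for binding the let-7 microRNA. Of 7 regulators and targets of let-7 and of IGF2 messenger RNA, 5 were lower and 2 higher, with a median of -0.29. HMGA2, a chromatin protein and classical let-7 target, differed by -0.69 from a signal of 6.40 in OAW42 to 5.71 in OAW42-R, the latter below the array's median. The growth factor receptor IGF1R differed by -0.49, and the IGF2 messenger RNA-binding proteins IGF2BP1 and IGF2BP3 differed by 0.45 and -0.31. The list had 1 gene of 7 past 1.5-fold, HMGA2, where 1.31% of all genes above the floor were as much lower. HMGA2 passed the floor only through OAW42, where it was higher, so this count is not read as a result.

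For GAS5, which is known as a decoy of the glucocorticoid receptor, 8 of 9 genes of that receptor and its targets were lower and 1 higher, where 49.7% of genes above the floor were lower, with a median of -0.23. Among the 8, TSC22D3 (-0.01), ZBTB16 (-0.04) and FKBP4 (-0.07) were close to equal. The receptor gene NR3C1 gave 7.11 in OAW42-R against 8.03 in OAW42 (-0.92), and the kinase gene SGK1 had signals of 6.86 and 7.81 (-0.95). The phosphatase DUSP1 and the co-chaperone FKBP5 differed by -0.48 and -0.41. This was the list with the most genes at least 1.5-fold lower (2 of 9, against 1.31% of all genes above the floor), and under the higher floor its median was -0.41. Nonsense-mediated decay factors, which degrade spliced GAS5, went both ways, with 6 of 11 higher and a median of 0.07. RBM8A differed by 0.36, SMG5 by 0.28, SMG8 by -0.28 and MAGOH by 0.27.

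For DANCR and GAS5 as snoRNA hosts, 3 of the 22 other listed lncRNA hosts had a cluster of their own. EPB41L4A-AS1 differed by 0.45, SNHG8 by 0.23 and SNHG17 by -0.09. For CRNDE, 4 of 6 IRX genes were lower, none by more than 0.11, and 2 were higher, with a median of -0.03. Under the higher floor 2 genes were left, IRX3 and IRX2, and their median of 0.58 rested on IRX3. Beside IRX3 and IRX6, IRX2 differed by -0.11 and IRX4 by -0.07.

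Other lncRNAs with a cancer literature gave the closest comparison for the members. Of 17 above the floor, 10 were higher, 4 lower and 3 equal, with a median of 0.19. Among all 860 lncRNA genes above the floor 57.9% were higher and 37.9% lower, so the count higher is near that share. UCA1, the lncRNA the study centred on, gave 11.62 in OAW42-R against 8.51 in OAW42 and was alone past 1.5-fold in this list (1 of 17 higher, against 2.02% of all genes above the floor). KCNQ1OT1 (0.38), LINC-ROR (0.36) and FTX (0.30) followed. Of these, KCNQ1OT1 is also in the imprinted list and was below the median of the OAW42 array. PCAT1, counted as higher, was below the median of that array too. LINC00511, counted as lower, was below the median of the OAW42-R array. The lowest was HOXA-AS2 (-0.18), so that no other lncRNA of the list was as low as CCAT1 or TUG1.

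**Figure D4:**
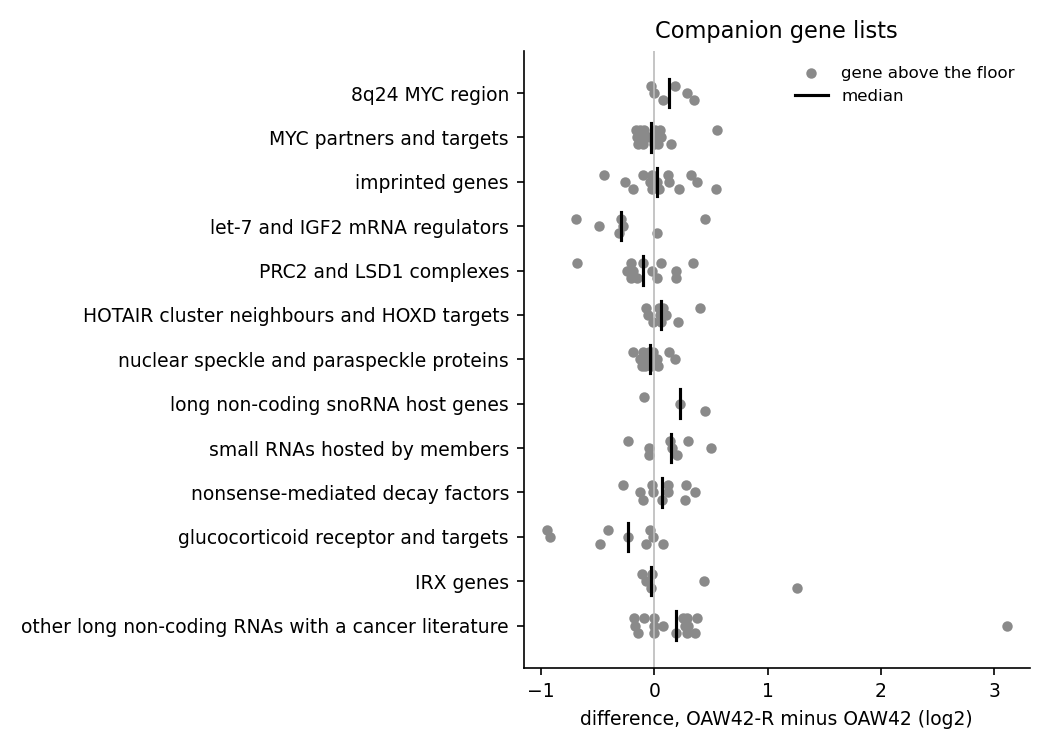
Difference OAW42-R minus OAW42 (log2, horizontal axis) of each gene above the floor (grey points) in the 13 companion lists, with the median of each list as a black bar. NR3C1 and SGK1 are the lowest points of all lists, and IRX3 (1.26) and UCA1 (3.11) are the highest.

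The labelled cell type was checked by markers. All 10 markers of ovarian and epithelial carcinoma cells were above the floor, PAX8 among them (11.67 in OAW42-R and 11.40 in OAW42), although EPCAM differed by 0.67 (10.70 and 10.03) and WT1 (6.75 and 6.83), MUC16 and CLDN4 were below the 75th percentile on both arrays. Of markers of other cells, 3 of 7 for fibroblasts, 3 of 5 for leukocytes, 2 of 4 for endothelial cells and 3 of 4 for mesothelial cells were above the floor. DCN, LUM, PDGFRA and FAP of fibroblasts, PTPRC and LYZ of leukocytes, PECAM1 and KDR of endothelial cells and CALB2 of mesothelial cells were below it. COL1A1 of fibroblasts (7.83 and 7.91), CD68 of leukocytes (10.47 and 10.56) and the mesothelial UPK3B (11.38 on both), LRRN4 and MSLN (7.89 and 7.87) were above the 75th percentile. COL1A2 and PDGFRB of fibroblasts, CD3E and CD14 of leukocytes and VWF and CDH5 of endothelial cells were above the floor but below the 75th percentile. The markers thus do not settle whether other cells were absent. List medians of these other cells lay between -0.08 and 0.02, although the mesothelial marker LRRN4 differed by 0.91. The part of EPCAM and LRRN4 in the lncRNA differences was not tested.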

How the data were processed

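A single labelled cDNA per line, made from total RNA and carrying biotin, was read on an Affymetrix whole-transcript array. The authors deposited a log2 signal for every transcript cluster, normalised by RMA (which corrects background, equalises array quantiles and summarises probes), which makes arrays alike and compresses large folds. The RMA version and genome build are not given in the sources used here. Samples were grouped by the labelled cell line, and the number of arrays limits the precision.

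Clusters with 1 symbol in the platform annotation (23780 of 67524) were named, those with several (1541) or none (42203) were not, with symbols updated through RefSeq (GRCh38.p14), which also gave gene type and order. Genes of chromosome Y and XIST were left out. Each gene was read from its cluster with the highest mean signal. The difference was OAW42-R minus OAW42, counted at 1.5-fold and 2-fold without a test. Named genes were all clusters of the listed lncRNAs, the 2 neighbours per locus and up to 4 genes a list that differed most in size, and hosted small RNAs; MYC, IRX5, USP46, RASL11B, MAX, DLK1, HOXA-AS2, TSC22D3, ZBTB16, FKBP4 and the cell type markers were added after their values were seen. The members and lists were chosen with earlier results of these data known. Promoters in the RefSeq sequence table were matched by symbol for 7 of the 10 lncRNAs. The rescalings and the 2-fold count were tested on simulated data, with less noise than the spread of differences over genes here. The simulated differences were given only to genes above the floor and alike to all clusters of a gene. That simulation therefore could not test the floor or the cluster choice. The 1.5-fold count, neighbours, lists and sequence searches were not tested in this way. Alternatives were 3 rescalings, other floors, folds, clusters and numbers of neighbours. Scripts ran in Python 3.11.15 with pandas 2.3.3, numpy 2.4.6, matplotlib 3.10.9 and statsmodels 0.14.6 (loess).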

Additional observations from a re-analysis of the deposited data

How the results depend on the processing

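Since each line has 1 array, leaving out a replicate could not be tried. No paired analysis was possible because nothing was tested. Under the median shift (0.02), quantile and loess rescalings the difference of CCAT1 stayed between -0.89 and -0.87, TUG1 between -0.65 and -0.62, DANCR between 0.52 and 0.55 and MALAT1 between 0.22 and 0.27, while HOTAIR and MEG3 took values down to -0.04, so their sign has no meaning. Each measured lncRNA has 1 cluster, so the choice of cluster could not move it. At a 2-fold threshold 0 lncRNAs were counted in place of 2, and 3 at a lower threshold that the 1.46-fold difference of DANCR passed and the 1.21-fold one of MALAT1 did not. With the floor at the 75th percentile, which keeps fewer genes, medians were 0.03 for the neighbours of CCAT1, -0.38 for those of TUG1, 0.21 for the HOXC and HOXD list, -0.41 for the glucocorticoid list and 0.58 for IRX genes. With no floor the neighbours of GAS5 had a median of 0.085, and with 3 neighbours on each side those of TUG1 had one of -0.29. The remaining 211 of the values recomputed moved by less than 0.15, the robust SD of differences over genes, or for counts by at most 1.5 times.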

Other observations

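Most lncRNA hosts of snoRNAs share their cluster with the small RNAs they carry, as GAS5 does, and took no part in the comparisons. Over 18 such genes of the companion list and 21 clusters, 9 clusters were higher in OAW42-R and 12 lower, around a median of -0.02 and a range from -0.39 to 0.72. Of all clusters on the array 53.2% were higher and 42.5% lower. Several of the 21 belong to SNHG14 alone, most of them lower, so they are not separate genes. The cluster of SNHG12 with SNORA61, SNORA44 and SNORA16A gave 9.75 in OAW42-R against 9.03 in OAW42 and was the 1 cluster past 1.5-fold (0.72). Of all clusters on the array, 1.75% were at least 1.5-fold higher. The cluster of SNHG6 with SNORD87 differed by 0.41 and that of SNHG16 with SNORD1C by -0.39.

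The cluster of NEAT1, the paraspeckle RNA made next to MALAT1, is shared with MIR612 and gave 11.19 in OAW42-R against 10.86 in OAW42 (0.33). The cluster of IGF2, which is shared with INS and INS-IGF2, had signals of 7.65 and 7.64. The cluster shared by DLEU2, MIR15A and MIR16-1 differed by 0.31. Values of shared clusters were not assigned to any single gene.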
